A study of Homo sapiens with 2 samples.

Results

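The genes described here encode dioxygenases that use iron and 2-oxoglutarate, an enzyme family that includes histone, DNA and RNA demethylases and the hydroxylases of hypoxia-inducible factor (HIF), collagen and ribosomal proteins. A fixed list of 38 genes was matched to the array by the platform annotation, which assigned them 112 probe sets of the 54613 in the table. They make up 38 of 19775 genes that have a probe set named for them alone. Expression was compared between 1 sample labelled HL60 that received eltrombopag at 3 µg/ml for 36 h and 1 sample labelled HL60 that was left untreated. HL60 is a human promyelocytic leukaemia cell line, and eltrombopag is a drug that activates the thrombopoietin receptor and can also chelate iron. Both cultures grew in RPMI with serum. The label of the untreated sample gives no culture time and no vehicle. Each group is 1 array of 1 culture, so the spread between cultures is unknown, the treatment cannot be tested, and what the drug did cannot be told apart from any other difference between these 2 cultures.

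These enzymes hold an iron ion in the active site and split molecular oxygen while turning 2-oxoglutarate into succinate and carbon dioxide. Loss of iron or oxygen, and excess succinate or fumarate, slow them in the test tube. Histone demethylases of this class, and the ALKBH and FTO enzymes on DNA or RNA bases, hydroxylate a methyl group that then falls off. The TET enzymes oxidise the methyl group of cytosine in DNA, which does not fall off by itself. The HIF hydroxylases mark the HIF alpha subunits for destruction or block their coactivator, and collagen hydroxylases modify proline and lysine in the endoplasmic reticulum. The arrays measured transcripts of these enzymes and say nothing of enzyme activity.

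Values are MAS5 signals, a linear brightness per probe set. A floor was set at a signal of 56.9, the 60th percentile of both samples pooled, and lower signals were raised to it. Each ratio is the log2 of the eltrombopag signal over the untreated one. A gene with several probe sets is represented by its brightest, and it is called measured where that probe set was above the floor in at least 1 sample. Of the eltrombopag sample's probe sets 39.3% lay above the floor, and of the untreated sample's 40.7%. The median ratio of all 10324 measured genes was -0.12, so a ratio near 0 already lay above the middle of the array. The promyelocyte granule gene MPO had a signal of 1467 with eltrombopag and 1556 untreated. CTSG, another promyelocyte marker, had 279.6 with eltrombopag and 500.5 untreated, 1.79-fold lower. PRTN3 and AZU1 had ratios of -0.21 and 0.26. Of 5 promyelocyte markers, 4 lay above the floor on both arrays, with ELANE below it, while the stem cell markers CD34 and KIT lay below it in both, although the labels give the cell type as stem. Of 7 plasma cell markers, 7 lay above the floor on both arrays. Their summed signal was 5447 with eltrombopag and 8458 untreated, with 4 of them at least 2-fold lower, and their part in the values below was not tested.

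No measured dioxygenase gene was shown to differ by 2-fold between the samples, with only a bound for KDM7A and PHYH. Of the 38 genes, 34 were measured, 32 above the floor on both arrays and 2 in the untreated sample alone, and 4 were below it in both. Among the 34, 0 passed 2-fold in either direction, where 0.649% of all measured genes passed it as higher and 2.27% as lower. At a smaller threshold of 1.5-fold, 1 gene was higher, KDM6B, against 3.49% of measured genes, and 0 were lower, against 11.8%. Those percentages depend on the scale: of all genes past 1.5-fold, 22.8% were higher in the values as deposited, 31.3% when the arrays were centred on 1 median, 40.5% with a lowess correction and 43.2% when they were quantile normalized. Ratios above 0 were found for 17 of the 34 genes, and 36.6% of all measured genes had one. The median ratio of the 34 genes was 0.01, with a range of -0.55 to 0.67, and 24 of them lay above the median of all measured genes. In RNA from a whole culture, fewer cells of a type and less RNA per cell cannot be told apart.

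Group medians lay on both sides of 0, and the differences between groups were not tested. Of 15 measured histone demethylases, 11 had a ratio above 0, and their median was 0.15. Of 2 measured HIF hydroxylases, 2 had a ratio below 0, and their median was -0.44. DNA and RNA demethylases had a median of -0.11 over 8 genes, collagen hydroxylases 0.19 over 4 and the other hydroxylases -0.05 over 5. The size of an error can be judged only from probe sets of the same gene. The SD of a single probe set's ratio, from the 2 brightest probe sets of 4373 genes, was 0.26. It was 0.30 over the 19 dioxygenase genes that have such a pair, and most of the differences below are no larger than that.

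**Figure D1:**
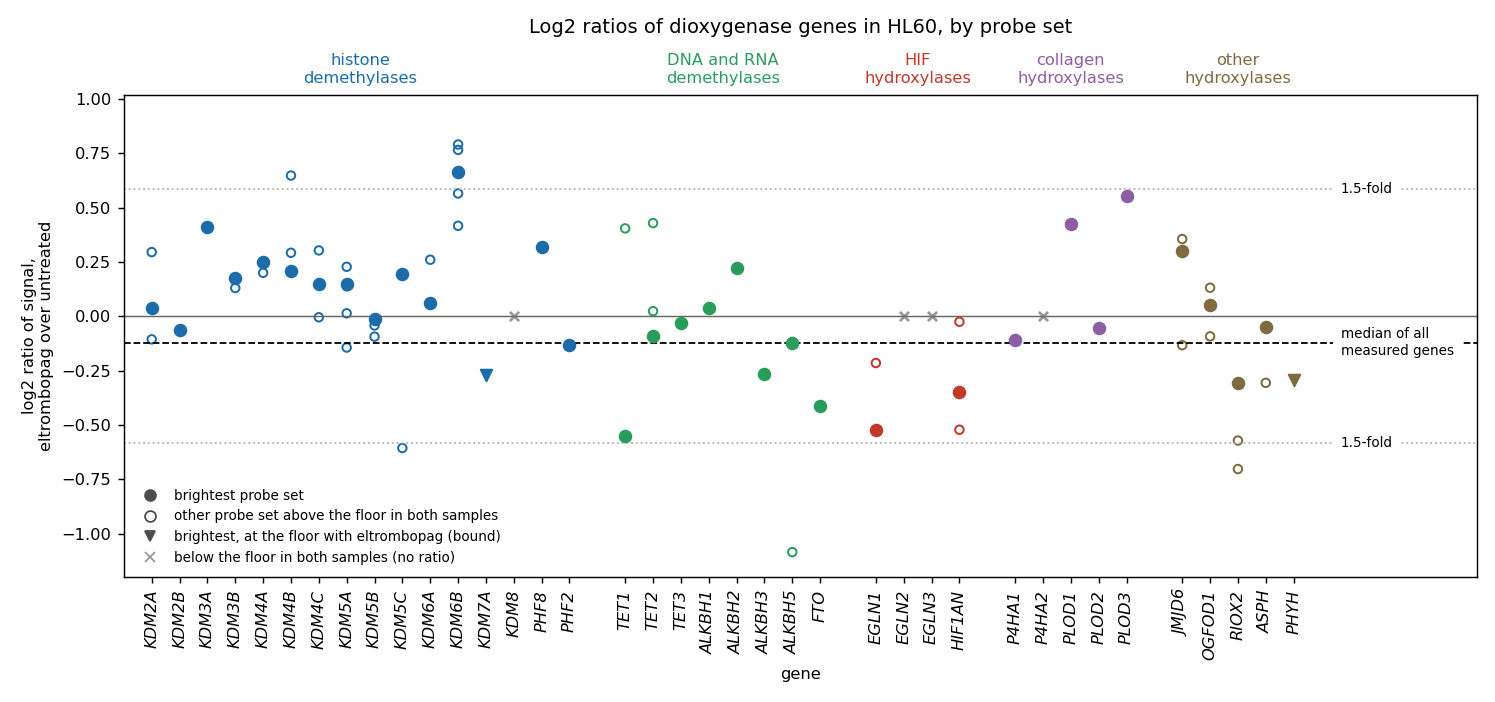
Log2 ratio of MAS5 signal, eltrombopag over untreated, on the vertical axis for each of the 38 genes along the horizontal axis, coloured by group. Filled circles are the brightest probe set, open circles other probe sets above the floor on both arrays, triangles bounds and crosses genes with no ratio. Dotted lines mark 1.5-fold and the dashed line the median of all measured genes, -0.12. KDM6B is the 1 gene whose brightest probe set passes a dotted line. Probe sets of the same gene lie far apart in TET1, KDM5C and ALKBH5 and, by less, in TET2, HIF1AN, JMJD6 and KDM4B.

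Upstream sequences are shown for 4 genes: KDM6B and PLOD3, which had the highest ratios of their groups, and KDM3A and EGLN1, which are known HIF targets and had ratios on opposite sides of 0. They were chosen after values had been seen. Each runs 5′ to 3′ on the gene's strand and covers the 250 bases before the RefSeq gene start in build GRCh38.p14. KDM6B lies at chr17:7833967-7834216 on the plus strand, KDM3A at chr2:86441121-86441370 on the plus strand, PLOD3 at chr7:101217582-101217831 on the minus strand and EGLN1 at chr1:231422288-231422537 on the minus strand. Capitals mark the core letters of the hypoxia response element, ACGTG or GCGTG, on either strand.
KDM6B: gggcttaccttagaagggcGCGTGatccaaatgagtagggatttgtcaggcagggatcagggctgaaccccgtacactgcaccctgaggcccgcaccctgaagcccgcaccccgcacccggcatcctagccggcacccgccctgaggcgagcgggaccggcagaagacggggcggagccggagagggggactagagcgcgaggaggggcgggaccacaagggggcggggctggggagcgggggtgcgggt
KDM3A: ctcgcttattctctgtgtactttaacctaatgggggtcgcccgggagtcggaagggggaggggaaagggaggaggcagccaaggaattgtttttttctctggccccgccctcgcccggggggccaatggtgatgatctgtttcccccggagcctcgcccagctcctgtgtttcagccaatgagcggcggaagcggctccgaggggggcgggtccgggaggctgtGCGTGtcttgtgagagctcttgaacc
PLOD3: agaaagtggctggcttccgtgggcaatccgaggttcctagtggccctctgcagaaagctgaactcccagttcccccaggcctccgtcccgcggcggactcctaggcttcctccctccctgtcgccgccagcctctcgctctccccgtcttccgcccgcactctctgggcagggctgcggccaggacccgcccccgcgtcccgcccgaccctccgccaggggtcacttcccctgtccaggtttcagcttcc
EGLN1: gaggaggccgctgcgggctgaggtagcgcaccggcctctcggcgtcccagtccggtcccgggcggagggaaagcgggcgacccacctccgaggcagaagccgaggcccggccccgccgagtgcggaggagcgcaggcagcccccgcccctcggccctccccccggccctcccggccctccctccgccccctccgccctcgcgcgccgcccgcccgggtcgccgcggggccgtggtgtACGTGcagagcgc
The core stood 231 bases before the start in KDM6B, 26 in KDM3A and 13 in EGLN1, and these letters are not in the PLOD3 window. Of the 35 dioxygenase genes with an upstream sequence in the RefSeq table, 23 held the core at least once, or 65.7%. It was found in 43.1% of all 27305 promoters and in 58.5% of 8507 promoters of measured genes. A match of so few letters is a description and not a binding site.

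Histone demethylases that remove repressive methyl marks include the KDM6 enzymes, which act on the Polycomb mark of histone H3. KDM6B, also known as an early response gene of macrophages, had a signal of 796.6 with eltrombopag and 502.2 untreated in its brightest probe set, a 1.59-fold difference with a log2 ratio of 0.67. Its other probe sets gave 587.1 with eltrombopag against 339.5 untreated, 363.2 against 245.5, 201.6 against 118.6 and 115.1 against 86.3. All 5 KDM6B probe sets were therefore higher with eltrombopag, with ratios of 0.42 to 0.79. Of the 265 genes with at least 5 probe sets above the floor on both arrays, 33 had all of them higher, and 3, KDM6B among them, had a lowest ratio at or above that of KDM6B. KDM6B was singled out for the highest ratio of the measured dioxygenase genes, so this count describes it and tests nothing. Probe sets of 1 gene read the same RNA on the same array and are not replicates. KDM6A, the X-linked relative of KDM6B, had 174.3 with eltrombopag and 167.1 untreated, a ratio of 0.06, and 0.26 in its other probe set above the floor on both arrays.

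KDM3 enzymes remove the lower methyl forms of the silencing mark on lysine 9 of histone H3. KDM3A, itself induced by HIF in many cells, had 1009 with eltrombopag and 759.1 untreated, a ratio of 0.41. This value rests on 1 probe set, since the other KDM3A probe set was below the floor. KDM3B had 624.8 with eltrombopag and 553.1 untreated, with ratios of 0.18 and 0.13 in its 2 probe sets. JMJD1C, the third gene of that subfamily and not on the list of 38, had 678.4 with eltrombopag and 431.5 untreated, a 1.57-fold difference, and its 3 probe sets had ratios of 0.33 to 0.65.

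The KDM4 enzymes remove the trimethyl form of that mark. KDM4A had 1064 with eltrombopag and 893.5 untreated, with ratios of 0.25 and 0.20 in its 2 probe sets. KDM4B, another HIF target, had 859.5 with eltrombopag and 744.8 untreated, a ratio of 0.21. Its 3 probe sets above the floor on both arrays agreed in direction but not in size, from 0.21 to 0.65, the last from 892.4 with eltrombopag against 569.7 untreated. Among all genes with at least 3 such probe sets, 15.2% had every one higher. KDM4C had 409.4 with eltrombopag and 368.8 untreated, a ratio of 0.15, with 0.30 and -0.0045 in the others. The brightest probe sets of all 3 KDM4 genes had ratios no larger than 0.26, the SD of a single probe set's ratio.

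KDM5 enzymes erase the methyl mark of active promoters. KDM5A had 1336 with eltrombopag and 1206 untreated, a ratio of 0.15, and its 5 probe sets spanned -0.14 to 0.23. KDM5B had 567.4 with eltrombopag and 572.7 untreated, and its 3 probe sets lay between -0.09 and -0.01, close to no difference. KDM5C had 566.3 with eltrombopag and 494.5 untreated, a ratio of 0.20, but its dimmer probe set went the other way, with 70.2 against 106.9 and a ratio of -0.61. No direction can therefore be given for KDM5C.

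Of the remaining histone demethylases, KDM2A and KDM2B bind CpG islands. KDM2A had 830.7 with eltrombopag and 809.1 untreated, and its 3 probe sets lay between -0.11 and 0.30. KDM2B had 704.6 with eltrombopag and 736.1 untreated in its 1 probe set, a ratio of -0.06. Both brightest ratios were within 0.12 of 0. PHF8, which carries a reader domain beside its catalytic domain and is mutated in a form of intellectual disability, had 486.4 with eltrombopag and 390.2 untreated, a ratio of 0.32 in its only probe set above the floor. PHF2, of the same subfamily, had 676.9 with eltrombopag and 741.9 untreated, a ratio of -0.13. KDM7A, the third, lay at the floor with eltrombopag, at 48.4 against 68.6 untreated, which is at least 1.20-fold lower. KDM8, first described as a demethylase and later as a protein hydroxylase, was below the floor in both samples in its 3 probe sets.

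**Figure D2:**
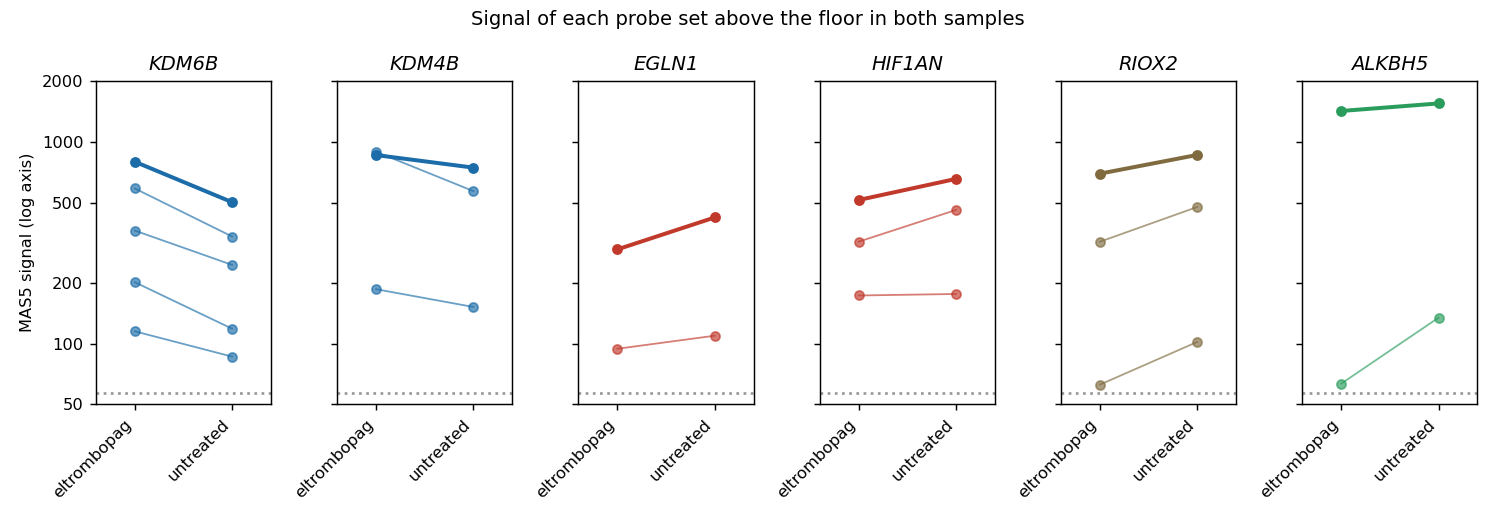
MAS5 signal on a log axis for each probe set above the floor on both arrays, eltrombopag on the left and untreated on the right of each panel, for 6 genes. Thick lines are the brightest probe set and the dotted line is the floor of 56.9. All lines of KDM6B and KDM4B are higher on the eltrombopag side and all lines of EGLN1, HIF1AN, RIOX2 and ALKBH5 are lower there, with slopes that differ between probe sets of a gene in each panel.

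The TET enzymes oxidise methylated cytosine in DNA. TET2, often mutated in myeloid leukaemia, had 401.1 with eltrombopag and 426.8 untreated, a ratio of -0.09, with 0.02 and 0.43 in its other probe sets. TET3 had 1292 with eltrombopag and 1319 untreated, a ratio of -0.03. TET1 was dim, with 77.0 with eltrombopag and 112.7 untreated in one probe set, a ratio of -0.55, and 101.2 against 76.5 in the other, a ratio of 0.40. Its probe sets contradict each other, and TET1 has no settled direction.

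ALKBH5 and FTO remove the methyl group from adenosine in messenger RNA. FTO had 305.7 with eltrombopag and 406.6 untreated, 1.33-fold lower, with a ratio of -0.41 in its 1 probe set. ALKBH5 had 1421 with eltrombopag and 1549 untreated, a ratio of -0.12. Its second probe set, dimmer and close to the floor, gave 63.4 with eltrombopag against 134.5 untreated and a ratio of -1.09. That probe set represents ALKBH5 when those with the suffixes _x_at and _s_at are left out, and the gene then passed 2-fold. The brightest ALKBH5 probe set lay at the middle of the array and the second near the floor, so no direction is given for ALKBH5. ALKBH2 and ALKBH3 repair alkylated bases: ALKBH2 had 372.3 with eltrombopag and 319.6 untreated, a ratio of 0.22. ALKBH3 had 355.5 with eltrombopag and 427.9 untreated, a ratio of -0.27. ALKBH1, which acts on transfer RNA among other substrates, had 135.6 with eltrombopag and 132.2 untreated, a ratio of 0.04.

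The HIF hydroxylases were lower in each gene that could be measured. EGLN1, the main prolyl hydroxylase of HIF alpha and itself a HIF target, had 293.2 with eltrombopag and 421.9 untreated, 1.44-fold lower, a ratio of -0.53. Its other probe set above the floor had 94.4 with eltrombopag and 109.5 untreated, a ratio of -0.21. HIF1AN, the asparaginyl hydroxylase that blocks HIF from its coactivators, had 514.8 with eltrombopag and 655.0 untreated, a ratio of -0.35. The other HIF1AN probe sets gave -0.52, from 320.1 with eltrombopag against 459.5 untreated, and -0.03, from 173.2 against 176.3. All 5 probe sets of EGLN1 and HIF1AN above the floor were therefore lower with eltrombopag; among all genes with at least 2 such probe sets, 41.2% had every one lower. EGLN3, a prolyl hydroxylase that HIF strongly induces in many cells, was below the floor in both samples, with 10.2 and 3.5 with eltrombopag and 15.2 and 5.9 untreated. The 1 probe set named for EGLN2 alone was below the floor too, at 3.3 with eltrombopag and 4.7 untreated, and 2 probe sets shared between EGLN2 and other genes were not used.

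Of 7 dioxygenase genes known as HIF targets, 5 were measured, 2 with a ratio above 0, KDM3A and KDM4B, and 3 below, EGLN1, P4HA1 and PLOD2. The ratios of P4HA1 and PLOD2, -0.11 and -0.05, are too close to 0 to give a direction. The median of the 5 was -0.05, beside -0.12 for all measured genes, and 4 of the 5 lay above that array median. Of 14 partners of the HIF pathway, 6 had a ratio above 0 and 8 below, with a median of -0.07, and 9 lay above the array median. The 6 above 0 were EPAS1, ARNT, OS9, CITED2, SIAH1 and HIF1A, with ARNT at 0.35 and HIF1A at 0.02. Another probe set of ARNT and of SIAH1 was below 0. The von Hippel-Lindau ligase, which destroys hydroxylated HIF alpha, uses ELOB and RBX1 as subunits. ELOB had 594.9 with eltrombopag and 1114 untreated, 1.87-fold lower. RBX1 had 512.6 with eltrombopag and 768.0 untreated, a ratio of -0.58, just short of 1.5-fold. Each of these values rests on 1 probe set. The other listed subunits ELOC, VHL and CUL2 had ratios of -0.30, -0.11 and -0.07 in their brightest probe sets. Those of VHL and CUL2 lay above the array median, and VHL was close to the floor, at 61.4 with eltrombopag and 66.4 untreated. Another probe set gave -0.85 for ELOC and -0.37 for CUL2. EP300, a HIF coactivator, had 300.5 with eltrombopag and 404.8 untreated, and EPAS1, which encodes HIF-2 alpha, was at least 1.79-fold higher, at 101.9 with eltrombopag against 54.4, below the floor, untreated.

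Of the 3 lysyl hydroxylases of collagen, PLOD3 and PLOD1 had ratios well above the middle of the array. PLOD3, which is also a glycosyltransferase, had 1669 with eltrombopag and 1136 untreated, 1.47-fold higher with a ratio of 0.55. PLOD1 had 169.2 with eltrombopag and 125.9 untreated, a ratio of 0.43. PLOD2, the lysyl hydroxylase of collagen telopeptides, had 137.5 with eltrombopag and 142.7 untreated, a ratio of -0.05. The PLOD3 and PLOD1 values each rest on the only probe set of the gene. P4HA1, a catalytic subunit of collagen prolyl hydroxylase, had 194.4 with eltrombopag and 210.0 untreated, a ratio of -0.11, and P4HA2 was below the floor in both samples in its 3 probe sets.

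The other genes of collagen modification were mixed and mostly dim. P3H1, a collagen prolyl hydroxylase of the endoplasmic reticulum outside the list of 38, had 468.3 with eltrombopag and 319.4 untreated, 1.47-fold higher. PPIB, a prolyl isomerase that works in a complex with it, had 5117 with eltrombopag and 3904 untreated, a ratio of 0.39. Of 15 collagen chain and assembly genes, 8 were measured, 2 with a ratio above 0 and 6 below. COL4A1, a basement membrane collagen, was 1.89-fold lower, at 62.4 with eltrombopag and 117.9 untreated. COLGALT1, a collagen galactosyltransferase, and SERPINH1, the collagen chaperone, had ratios of -0.38 and -0.29. The fibroblast markers COL1A1 and DCN were below the floor in both samples.

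**Figure D3:**
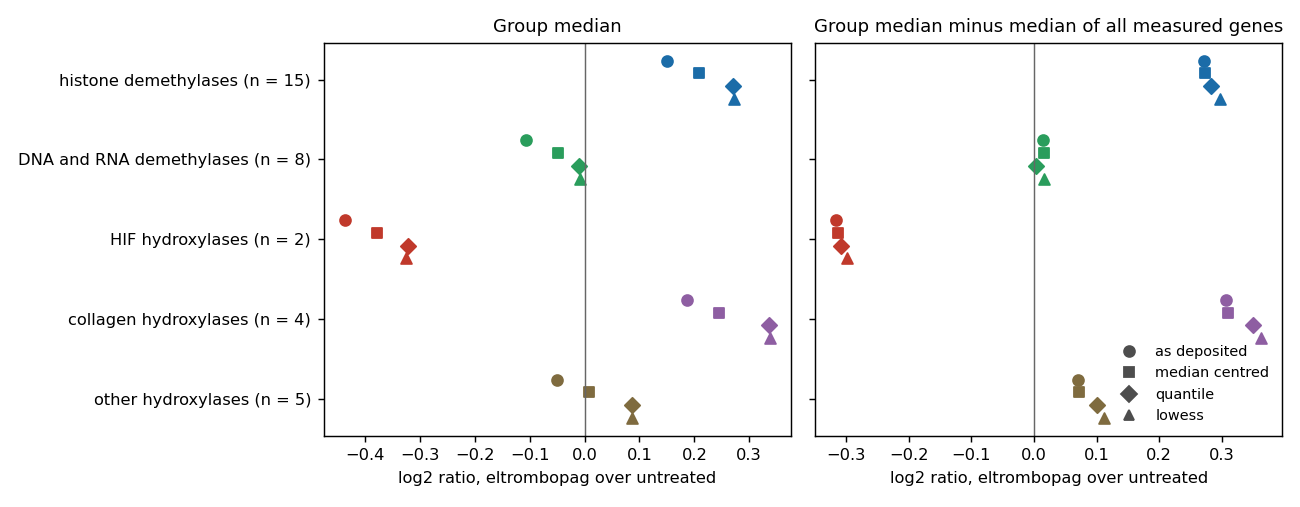
Median log2 ratio of each group, eltrombopag over untreated, on the horizontal axis, as it stands (left) and after the median of all measured genes was taken off (right). Symbols give the 4 scalings of the arrays. Before the subtraction the medians move to the right by about the shift of the whole array. After it histone demethylases lie between 0.27 and 0.30 and HIF hydroxylases between -0.32 and -0.30 under every scaling shown. Scalings that move most genes by a similar amount could hardly change these differences.

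Hydroxylases of other proteins and of lipids made up the rest. RIOX2, a ribosomal histidine hydroxylase and MYC target, had 695.4 with eltrombopag and 860.9 untreated, a ratio of -0.31, and its other probe sets had -0.57 and -0.70. The last came from a probe set close to the floor, at 62.7 with eltrombopag against 102.0 untreated. All 3 RIOX2 probe sets above the floor on both arrays were lower with eltrombopag. Among all genes with at least 3 such probe sets, 33.2% had every one lower. RIOX1, its closest relative, was outside the list of 38 and also lower, with 367.1 with eltrombopag and 538.4 untreated, a ratio of -0.55. JMJD6, which hydroxylates lysine in splicing factors, had 398.6 with eltrombopag and 323.4 untreated, a ratio of 0.30, and its others gave 0.36 and -0.13. OGFOD1, a ribosomal prolyl hydroxylase, had 1303 with eltrombopag and 1255 untreated, with 3 probe sets between -0.09 and 0.13, about no difference. ASPH, which hydroxylates EGF-like domains, had 189.4 with eltrombopag and 196.2 untreated, a ratio of -0.05, and 7 of its 9 probe sets were below the floor. PHYH, the peroxisomal enzyme of phytanic acid breakdown, had 26.9 with eltrombopag and 69.6 untreated, which is at least 1.22-fold lower. It passed 2-fold when the floor was set at the 50th percentile or left out.

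The 24 of 34 dioxygenase genes above the array's median included 13 of 15 histone demethylases, 4 of 8 DNA and RNA demethylases, 0 of 2 HIF hydroxylases, 4 of 4 collagen hydroxylases and 3 of 5 others. Above the same median lay 15 of 23 histone lysine methyltransferases and complex subunits, 7 of 9 RNA methylation genes and 9 of 14 HIF pathway partners. So did 9 of 16 relatives outside the list, 2 of 6 DNA methyltransferases and partners and 7 of 19 genes of 2-oxoglutarate metabolism. Such a lean was thus not particular to the listed genes, and the lists were not tested against each other. The whole array shifts with the scaling: the median of all measured genes was -0.12 as deposited, -0.065 with median centring, -0.025 with lowess and -0.013 with quantile normalization. The count of histone demethylases above that median was 13 of 15 under each of these. Such scalings move most genes by a similar amount, so that count could hardly change. It was 12 of 15 with the mean over probe sets and 8 of 10 without the suffixes _x_at and _s_at. The median of the histone demethylases stayed above 0 and that of the HIF hydroxylases below 0 under every scaling. The alternative scalings raised both medians, so that of the histone demethylases could not have changed sign. The median of the other hydroxylases was below 0 as deposited and above 0, at 0.01 to 0.09, under the 3 other scalings. KDM6B passed 1.5-fold under each scaling, and PLOD3 passed it under the 3 others but not as deposited. Those 3 raised both ratios, so KDM6B could not have dropped out under them. Ratios of 0.12 in size or less, about the shift of the array, give no direction.

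Genes that put the marks on were compared with those that remove them. Of 23 histone lysine methyltransferases and complex subunits, 13 had a ratio above 0 and 10 below, with a median of 0.07, below the 0.15 of the demethylases but without a test of the difference. SUV39H2, which writes the silencing mark that KDM4 enzymes remove, was 2.02-fold lower, at 130.6 with eltrombopag and 264.3 untreated. KMT2B, a writer of the promoter mark, had 253.4 with eltrombopag and 170.2 untreated, a ratio of 0.57. DOT1L, which methylates the core of histone H3, had ratios of 0.51 and 0.54 in its 2 probe sets, while SETDB1 had 0.52 in one and -0.21 in the other. The flavin-dependent histone demethylases KDM1A and KDM1B, which need no iron, had ratios of 0.02 and -0.13, and their cofactor RCOR1 had 0.14.

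On the DNA side, 4 of 6 methyltransferases and partners had a ratio below 0, with a median of -0.30. UHRF1, which guides maintenance methylation, was 2.54-fold lower, DNMT3B, a de novo methyltransferase, was 1.86-fold lower, at 273.2 with eltrombopag and 507.4 untreated, and DNMT1 and DNMT3A had ratios of -0.36 and -0.24. UHRF1 and DNMT3B were named for the largest ratios of their list, and each rests on 1 probe set above the floor. The TET genes differed by less than UHRF1 and DNMT3B in their brightest probe sets. TET1, at -0.55 there, differed by more than DNMT1 and DNMT3A, but its probe sets contradict each other. Of 9 measured writers and readers of RNA adenosine methylation, 6 had a ratio above 0, with a median of 0.03. RBM15 had 0.41 in its brightest probe set but -0.64 to 0.52 over 5, VIRMA 0.29, WTAP -0.25 with 0.30 in another, and YTHDF1 -0.15.

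**Figure D4:**
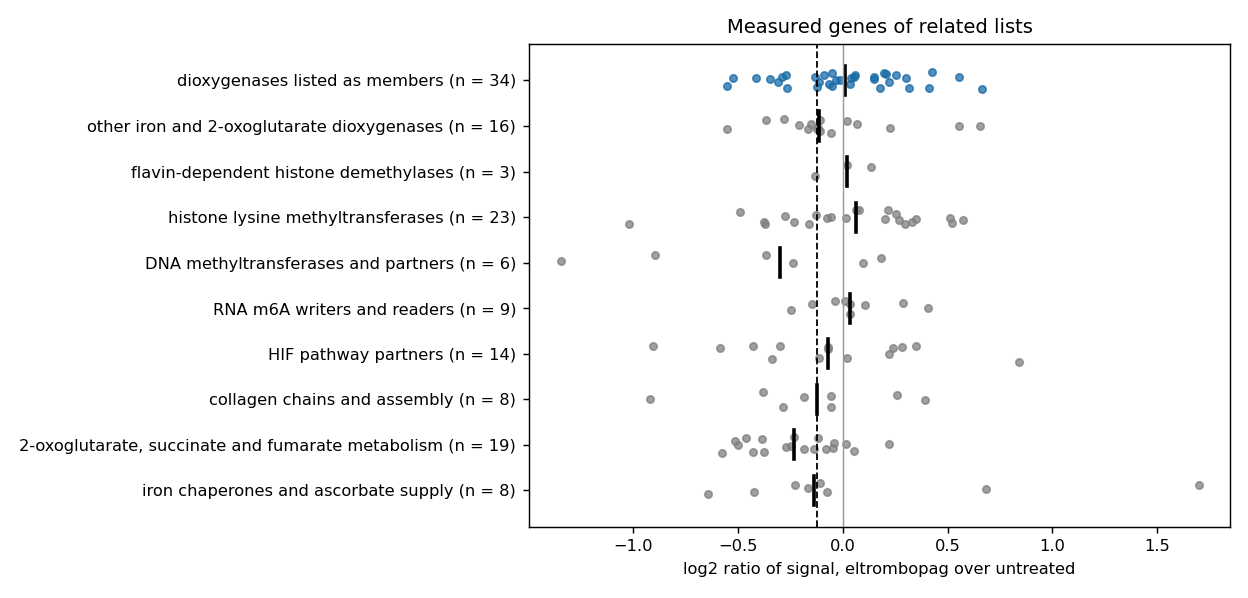
Log2 ratio of signal, eltrombopag over untreated, on the horizontal axis for every measured gene (point) of each list (row), with list medians as bars and the median of all measured genes as a dashed line. The 34 dioxygenase genes span -0.55 to 0.67 around a median of 0.01, and 12 of the 19 genes of 2-oxoglutarate metabolism lie below the dashed line.

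Genes that make and use the co-substrate were compared as well. Of 19 measured genes of 2-oxoglutarate, succinate and fumarate metabolism, 3 had a ratio above 0 and 16 below, with a median of -0.23, and 0 passed 1.5-fold. Among all measured genes 63.4% had a ratio below 0, and 12 of these 19 lay below the array's median. IDH3A and IDH3B, subunits of the mitochondrial isocitrate dehydrogenase that makes 2-oxoglutarate, had ratios of -0.58 and -0.51. IDH3G, another subunit of that enzyme, had 0.02. DLD, a subunit of the complex that consumes 2-oxoglutarate, had -0.50 and SUCLA2, of succinyl-CoA synthetase, -0.46. DLST and OGDH, of the same complex as DLD, had 0.22 and -0.27, with 0.31 in another OGDH probe set. Of 8 genes of iron delivery, iron storage and ascorbate supply, 2 had a ratio above 0 and 6 below. TFRC, the transferrin receptor, was 3.24-fold higher, and SLC23A1, an ascorbate transporter, at least 1.60-fold, at 91.3 with eltrombopag against 37.1, below the floor, untreated. GSTO1, which can reduce dehydroascorbate, was 1.56-fold lower, and NCOA4, the ferritin receptor of autophagy, had a ratio of -0.42.

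The 16 measured relatives of the same enzyme class outside the list of 38 had a median of -0.11, with 5 ratios above 0 and 11 below, beside 17 above and 17 below for the listed genes. Of these, 1 passed 1.5-fold, JMJD1C, and 0 passed 2-fold. P4HTM, a membrane prolyl hydroxylase that can act on HIF alpha, had 494.2 with eltrombopag and 637.0 untreated. Its ratio of -0.37 rests on 1 probe set above the floor. It was below 0 like those of EGLN1 and HIF1AN, as were 63.4% of all measured genes. The 2 lists were not tested against each other.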

How the data were processed

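The authors deposited 1 MAS5 signal intensity per probe set and sample. The submitters' processing notes name MAS5, a method that corrects background and summarises probes array by array, and its settings were not given in the sources used here. Low signals are the least precise, and with 1 array per group the number of arrays sets the precision.

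In the platform annotation 41091 probe sets had 1 gene. Another 1801 had several genes and were not used, and 11721 had no entry. The RefSeq table (GRCh38.p14) matched 41037 of those with 1 gene and changed 0 symbols. Signals were used as deposited, with the floor, the brightest probe set and the 2-fold and 1.5-fold thresholds given above, in Python 3.11.15 with pandas 2.3.3; the counting was tested on simulated data. The members, groups and lists were chosen with earlier results of these data known. Named were all 38 genes and, of each list, up to 4 measured genes with the largest ratio in size, beside the cell type markers. Other listed subunits of the von Hippel-Lindau ligase and of the enzymes that make and consume 2-oxoglutarate were named too. So were the HIF pathway partners with a ratio above 0.

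Alternatives were 3 scalings (median centring, quantile, lowess with span 0.3), a floor at the 50th or at the 75th percentile or no floor, the mean over probe sets, omission of the suffixes _x_at and _s_at, and agreement of every probe set.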

Additional observations from a re-analysis of the deposited data

How the results depend on the processing

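Of the 34 measured dioxygenase genes, 25 kept the sign of their ratio under each of the 8 alternatives that gave them a value, 16 of them above 0 and 9 below. The other 9 changed sign at least once, and of these KDM5C alone had started above 0. Median centring, quantile normalization and lowess raised the ratio of each measured dioxygenase gene. Under them a ratio above 0 could not change sign, while one slightly below 0 could. TET2, for example, went from -0.090 as deposited to 0.025 with quantile normalization. The split of 16 and 9 therefore does not show that ratios above 0 are the more stable. KDM6B lay between 0.64 and 0.77, PLOD3 between 0.55 and 0.64, EGLN1 between -0.53 and -0.37 and HIF1AN between -0.35 and -0.24. The count at least 1.5-fold higher became 2 under median centring, quantile normalization and lowess, with PLOD3. The counts at least 2-fold and at least 1.5-fold lower became 1 each (PHYH) when the floor was the 50th percentile or absent, and without the suffixes _x_at and _s_at (ALKBH5). With the mean over probe sets 1 was at least 1.5-fold lower, ALKBH5. The median of all measured genes became -0.013 with quantile normalization. Group medians under quantile normalization and lowess were 0.27 and 0.27 for histone demethylases, -0.32 and -0.32 for HIF hydroxylases, 0.34 and 0.34 for collagen hydroxylases, and 0.087 and 0.087 for the others. With the mean over probe sets they were -0.33 for HIF hydroxylases and -0.18 for the others. The collagen hydroxylases gave -0.0056 with no floor, where P4HA2 enters, and 0.49 without the suffixes, where 2 genes remain. Except where fewer genes enter, the cause was not tested.

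Among all genes, the 67 higher and 234 lower by 2-fold became 108 and 133 with quantile normalization, 105 and 138 with lowess, 37 and 98 with a 75th percentile floor, and 1194 and 1324 with none. At 1.5-fold, 360 higher and 1218 lower became 593 and 780, 556 and 818, 238 and 709, and 2486 and 3340 in the same order. Of the 2-fold changes 22.3% were higher as deposited, and 30.6%, 44.8% and 43.2% after median centring, quantile normalization and lowess. No paired analysis was possible because each group holds 1 sample.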
